A study of Mus musculus with 9 samples.

Results

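The cholesterol and fatty acid synthesis genes followed here comprised 34 genes: the enzymes that build cholesterol from acetyl-CoA, the SREBP transcription factors with partners that regulate them, proteins that move, store or export sterols, and the enzymes that make and extend saturated and monounsaturated fatty acids. They were chosen by symbol among the 16399 genes that the deposited expression files list, and 32 of them reached at least 1 TPM (transcripts per fixed total, a length-adjusted unit of abundance) in at least 3 libraries and were tested together with all other such genes, 11287 in all. Poly(A) RNA from cultured cells was sequenced in 9 libraries. MC38, a mouse colon carcinoma line carrying GFP and luciferase, was the parent (MC38-P). MC38-LM3a and MC38-LM3b are separately derived lines from it, each recovered after 3 rounds of intrasplenic injection and re-isolation of tumor cells from the liver. All 3 lines carried the reporters and were grown in culture, with 3 replicates each, which the study's methods call biological. Each group is a single line, and p-values measure the spread between these replicates. Both derivatives were compared with the same MC38-P libraries, and their values against MC38-P are therefore not independent of each other.

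Cells make cholesterol in a long series of reactions, from acetyl-CoA through mevalonate and farnesyl diphosphate to squalene and then, by ring closure and trimming, to cholesterol. When sterols in the endoplasmic reticulum are low, SCAP carries the SREBP proteins to the Golgi for cleavage, and the released factors switch on the synthesis enzymes. When sterols are plentiful, INSIG1 holds SCAP back. SREBP-2, made from Srebf2, acts mainly on cholesterol genes, and SREBP-1, made from Srebf1, mainly on fatty acid genes. The liver is a main site of both syntheses in the body, and tumor cells also rely on them for new membranes.

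The promoters of the members are shown because these genes are known to respond together to SREBP, which acts with the factor NF-Y. RefSeq promoter sequences of GRCm38.p6 were found for 26 of the 34 members. The letters CCAAT, the core of the NF-Y site, were searched on both strands of the 250 bases before each start. They occurred in 20 of the 26 members and in 65.6% of the members' windows, against 33.8% of all windows in the table and 36.2% of the windows of tested genes. The core of the sterol regulatory element, searched as TCACNCCAC on both strands, was found in Hmgcs1 alone among the members and in 1.05% of all windows. The GC box GGGCGG was found in 21 members, or 71.9% of their windows, against 58.7% of the windows of tested genes. The 160 bases before the start are printed below for 4 synthesis genes that fell in both derivatives, for Srebf2, which also fell, and for Soat1, which rose in MC38-LM3b. Capitals mark TCACNCCAC and CCAAT, the latter read as ATTGG where it lies on the other strand.
Hmgcs1: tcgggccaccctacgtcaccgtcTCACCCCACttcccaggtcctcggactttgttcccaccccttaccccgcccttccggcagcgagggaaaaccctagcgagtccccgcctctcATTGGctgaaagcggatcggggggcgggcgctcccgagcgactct
Idi1: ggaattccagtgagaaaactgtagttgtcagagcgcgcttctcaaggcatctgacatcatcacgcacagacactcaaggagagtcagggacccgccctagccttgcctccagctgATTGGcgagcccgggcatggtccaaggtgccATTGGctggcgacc
Cyp51: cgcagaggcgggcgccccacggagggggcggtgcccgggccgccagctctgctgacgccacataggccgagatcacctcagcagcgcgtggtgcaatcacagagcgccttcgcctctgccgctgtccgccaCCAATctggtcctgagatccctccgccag
Msmo1: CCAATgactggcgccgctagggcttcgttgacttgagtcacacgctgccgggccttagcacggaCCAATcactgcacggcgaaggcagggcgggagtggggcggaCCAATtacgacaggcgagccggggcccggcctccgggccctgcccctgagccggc
Srebf2: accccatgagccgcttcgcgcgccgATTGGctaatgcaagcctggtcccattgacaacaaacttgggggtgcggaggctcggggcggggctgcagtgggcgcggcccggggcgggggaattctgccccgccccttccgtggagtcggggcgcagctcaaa
Soat1: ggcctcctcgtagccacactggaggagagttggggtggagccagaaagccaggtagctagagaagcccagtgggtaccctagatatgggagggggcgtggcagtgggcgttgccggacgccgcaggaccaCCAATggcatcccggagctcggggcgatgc
These windows lie at chr13:119690191-119690350 on the plus strand for Hmgcs1, chr13:8885446-8885605 on the plus strand for Idi1, chr5:4104698-4104857 on the minus strand for Cyp51, chr8:64733579-64733738 on the minus strand for Msmo1, chr15:82147109-82147268 on the plus strand for Srebf2 and chr1:156474329-156474488 on the minus strand for Soat1. In Hmgcs1 the sterol regulatory core began 137 bases before the start. CCAAT was not limited to genes that fell: 7 of the 8 members with a window that fell in both derivatives held it, all but Acat2, and it was also found in Soat1, Srebf1, Ebp and Mvk. A match of letters describes the window and says nothing on binding in these cells.

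Before the comparisons, some features of the libraries have to be given. The number of genes at or above 1 TPM was 10875 to 11218 per library. Read counts were not among the values, and the depth is therefore unknown. In MC38-P replicate 3 long transcripts were low against its group, with a Spearman correlation of -0.65 between the deviation and transcript length across 11096 genes. In MC38-LM3a replicate 3 they were high, with a correlation of 0.67. These genes are not independent and the correlations are descriptions. The other replicates deviated the opposite way, at 0.54 and 0.43 in MC38-P and at -0.58 and -0.54 in MC38-LM3a. Results are therefore also given with each library corrected for its trend along the GC content and length of transcripts. This correction also centres the library. Results without these 2 libraries are given as well, but leaving them out does not itself correct for length. In that fit 45.2% of all genes were lower and 18.4% higher in MC38-LM3a. The labelled epithelial type was only partly borne out: Krt8 (744 to 1206 TPM) and Krt18 were high, whereas Cdh1 and Vil1 stayed at or below 0.13 TPM. The epithelial markers moved with the groups as well: of 6 tested, 2 rose and 4 fell in MC38-LM3a, and none rose and 4 fell in MC38-LM3b. With median centring no rise was called in MC38-LM3a and 3 fell. Epcam was at 4.93 to 6.31 TPM in the parent and at 1.87 to 2.40 TPM in the derivative libraries. The epithelial sum was 2003 to 2318 TPM in the parent, 1592 to 1811 TPM for MC38-LM3a and 1584 to 1629 TPM for MC38-LM3b. Of hepatocyte markers, 8 were listed, and Alb, Ttr, Apoa1 and Hnf4a were at or near 0 in every library. Apoa2, the only one tested, was at 1.16 to 4.23 TPM. It was not called in either derivative, at -0.40 in MC38-LM3a and 0.25 in MC38-LM3b. Between the derivatives it was 0.65 higher in MC38-LM3b, with an unadjusted p under 0.05 by limma, and not called. The summed level of the 8 was 1.82 to 3.60 TPM in the parent, 2.05 to 2.17 TPM for MC38-LM3a and 2.71 to 4.29 TPM for MC38-LM3b. Markers of other cell types moved with the groups in part. Of 5 macrophage markers listed, Cd68 and Cd14 were tested and rose in both derivatives. With median centring only 1 of the 2 was called higher in MC38-LM3b. The macrophage sum was 38.9 to 40.1 TPM in the parent, 48.8 to 53.7 TPM for MC38-LM3a and 55.6 to 60.0 TPM for MC38-LM3b. Ptprc, Csf1r and Lyz2 stayed at or below 0.28 TPM. Of 5 stellate and fibroblast markers, Col1a1 and Col3a1 fell in both, with sums of 135 to 172, 54.0 to 72.5 and 65.3 to 72.2 TPM. Pdgfrb, the other tested gene of this list, rose in MC38-LM3b, from 1.15 to 1.74 TPM in the parent to 3.48 to 3.80 TPM. It was not called in MC38-LM3a as deposited (1.69 to 2.42 TPM). With the correction and with median centring it was called higher there, at 0.38 and 0.30. Dcn stayed at or below 0.13 TPM. Of 3 adipocyte markers, Lipe fell in both, with sums of 3.76 to 5.53, 2.06 to 2.50 and 2.72 to 3.75 TPM, and Adipoq stayed at or below 0.09 TPM. The part of these markers in the results was not tested.

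Levels differed widely between members. Fdps had the highest levels. It was at 550 to 586 TPM in MC38-P, followed in that line by Scd2 and Msmo1. Abca1 and Abcg1, the exporters of cholesterol, stayed at or below 0.06 and 0.89 TPM and were not tested. Tm7sf2 was the lowest of the tested members, at 1.65 to 3.74 TPM. Added over all members, expression was 3785, 3471 and 3090 TPM in MC38-P, 2538, 2377 and 2745 TPM in the MC38-LM3a replicates, and 3042, 2915 and 2840 TPM in those of MC38-LM3b. Every derivative library was below every MC38-P library in this sum. In bulk samples such sums cannot separate less RNA per cell from fewer cells of a kind.

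**Figure D1:**
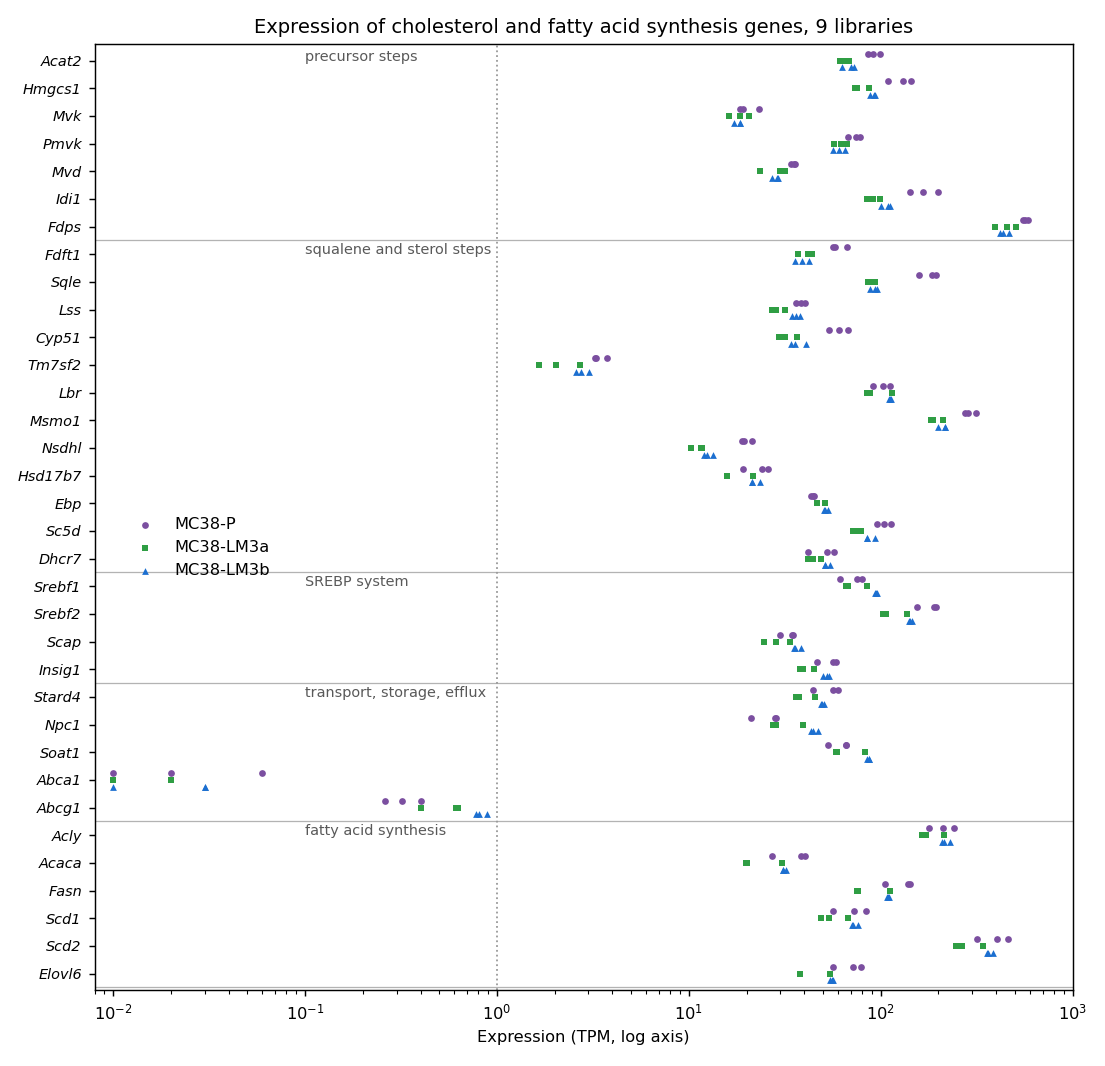
Expression of the 34 members in TPM on a log axis, one point per library, with 3 libraries per line, grouped by role. The dotted line marks 1 TPM. Abca1 and Abcg1 lie below it in all libraries, Fdps lies at the top, and the points of Sqle and Idi1 in both derivatives lie left of all MC38-P points.

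The members called in MC38-LM3a were all lower than in MC38-P. At an adjusted p under 0.05 by limma on log2(TPM + 1), 19 of the 32 tested members fell and 0 rose, where 13.8% of all tested genes fell and 14.1% rose. At an unadjusted p under 0.05, 22 members passed, all of them lower, where 38.5% of all tested genes passed in either direction. The median log2 fold change of the members was -0.41, beside -0.00 for all tested genes. In 17 members all MC38-LM3a libraries were below all MC38-P libraries (15.9% of all genes), and in 1, Ebp, all were above (20.3%). Changes were moderate: only Sqle passed, and just passed, the additional limit of 1 on the log2 scale, which 1.5% of all genes passed downward and 1.39% upward.

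In MC38-LM3b 13 members fell and 4 rose, where 11.2% of all genes fell and 35.6% rose. The background had shifted here: the median of all tested genes was 0.21, and that of the members -0.19, with 28 of 32 members below the median of all genes. In 14 members all MC38-LM3b libraries were below all MC38-P libraries (15.4% of all genes), and in 5 all were above (51.3%). At an unadjusted p under 0.05, 17 members passed in either direction, as did 55.2% of all tested genes. No member passed the limit of 1 (1.18% of all genes did so downward and 2.76% upward). With the correction along GC content and length, which removes the shift, 25 members fell and 2 rose in MC38-LM3a (25.3% and 27% of all genes), and 23 fell and 3 rose in MC38-LM3b (28.9% and 29.6%). The medians of the members were then -0.39 and -0.34.

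The fall was shared by 11 members in both derivatives: Acat2, Hmgcs1, Idi1, Fdps, Fdft1, Sqle, Cyp51, Msmo1, Nsdhl, Sc5d and Srebf2, where 9.07% of all genes were lower in both. None rose in both (13.3% of all genes). With the correction 23 members were lower in both (22.4%), and 2, Npc1 and Soat1, were higher in both (23.2%). All 11 named above encode cholesterol synthesis enzymes except Srebf2, the gene of the factor that acts on them.

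**Figure D2:**
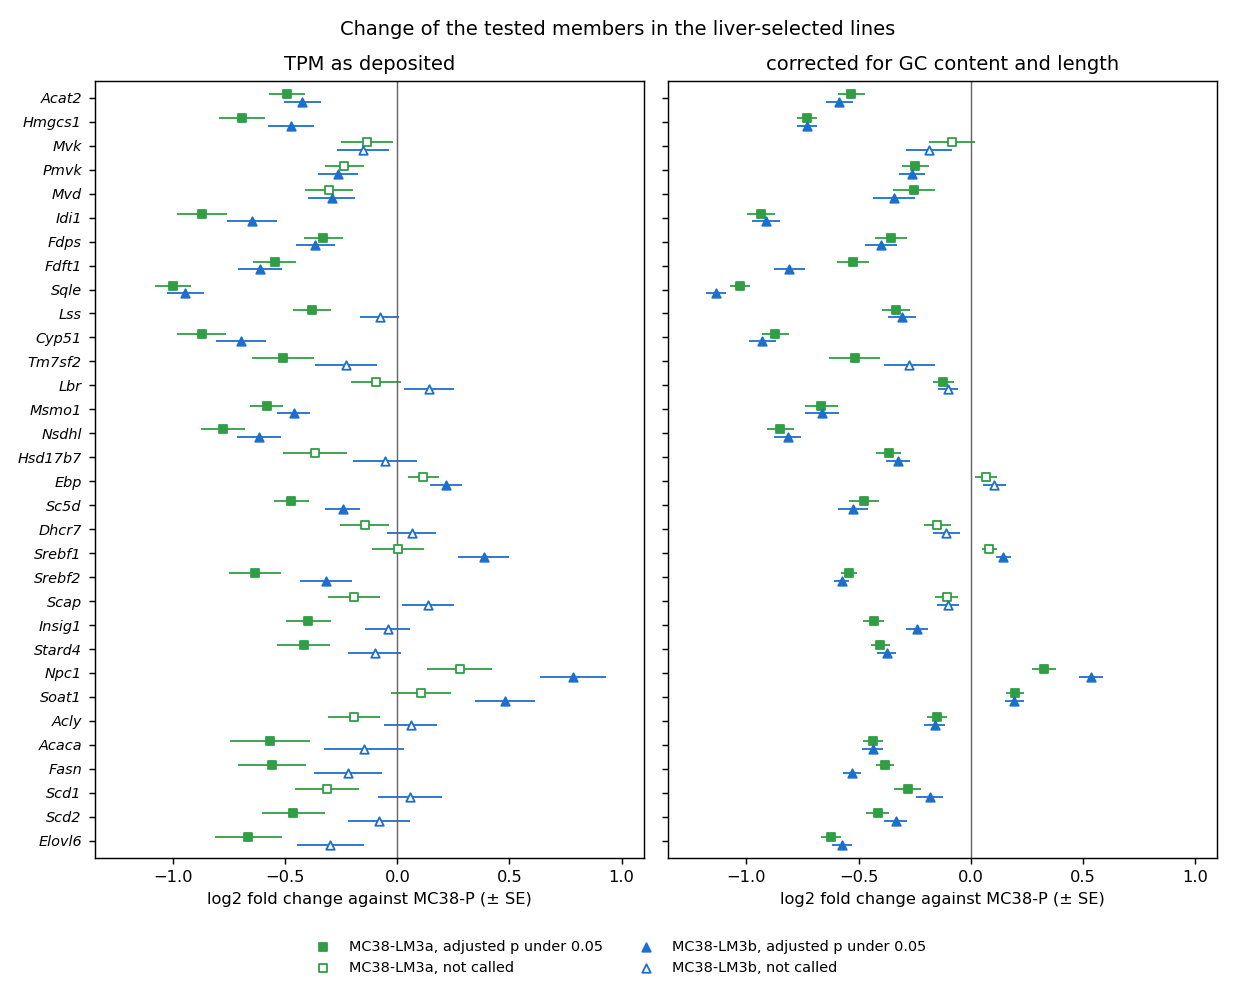
Log2 fold change with its standard error for the 32 tested members in MC38-LM3a and MC38-LM3b against MC38-P, from the deposited TPM (left) and with the correction along GC content and length (right). Filled symbols have an adjusted p under 0.05. Most symbols lie left of 0, with Sqle lowest at -1.001 and -0.94 on the left, and Npc1 and Soat1 lie right of 0.

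Among the 7 genes of the precursor steps, from acetyl-CoA to farnesyl diphosphate, 4 fell in MC38-LM3a, 6 fell in MC38-LM3b and none rose (of all genes 13.8% and 11.2% fell). Idi1, which interconverts the isoprene building blocks, had the largest fall of this group. Its level was 199, 167 and 143 TPM in MC38-P, 91.3, 84.4 and 99.1 TPM in MC38-LM3a, and 112, 109 and 100.2 TPM in MC38-LM3b. All 6 derivative libraries were below all MC38-P libraries. Against MC38-P its log2 fold change was -0.87 ± 0.11 in MC38-LM3a (SE; adjusted p = 2.59e-04). In MC38-LM3b it was -0.65 ± 0.11 (adjusted p = 0.00108). Hmgcs1, the synthase that joins acetyl-CoA to acetoacetyl-CoA, was at 144, 130 and 109 TPM in MC38-P, at 75.2, 73.1 and 86.8 TPM in MC38-LM3a, and at 93.0, 92.8 and 87.5 TPM in MC38-LM3b. Its groups did not overlap with MC38-P either, and it fell by 0.69 and by 0.47 on the log2 scale (SE 0.10 each). Acat2, the thiolase of the opening step, fell by 0.49 and 0.42 (SE 0.08 each). Fdps, the farnesyl diphosphate synthase, ranged over 550 to 586 TPM in the parent, 395 to 510 TPM in MC38-LM3a libraries and 419 to 469 TPM in MC38-LM3b libraries. It fell in both, the means being lower by 20.1% and 22.3%. With median centring its value in MC38-LM3a was -0.33 ± 0.14 (adjusted p = 0.0889), no longer called. The kinase Pmvk and the decarboxylase Mvd had nearly equal values in both derivatives with all libraries as deposited. With the correction both were called lower in both, Pmvk at -0.25 and -0.26 and Mvd at -0.25 and -0.34. Without MC38-P replicate 3 and MC38-LM3a replicate 3, Pmvk was at -0.13, not called, and -0.22, called. Mvd was then called in both, at -0.20 and -0.31, where 45.2% and 19% of all genes were lower. As deposited, each was called only in MC38-LM3b. Pmvk was at -0.24 ± 0.09 (adjusted p = 0.0692) and -0.27 ± 0.09 (adjusted p = 0.0304), and Mvd at -0.30 ± 0.11 (adjusted p = 0.0555) and -0.29 ± 0.11 (adjusted p = 0.0428). Mvk, the mevalonate kinase, was not called in either, with overlapping groups and values of 16.1 to 23.2 TPM in all libraries.

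Of the 12 genes of the squalene and sterol steps, 8 fell in MC38-LM3a, 6 fell in MC38-LM3b and 1, Ebp, rose in MC38-LM3b, beside the same shares of all genes and 35.6% that rose in MC38-LM3b. Sqle, the squalene epoxidase and a rate-controlling enzyme of the later pathway, fell most among all members. It was at 194, 185 and 159 TPM in MC38-P, at 87.8, 85.6 and 93.0 TPM in MC38-LM3a, and at 95.5, 93.9 and 87.7 TPM in MC38-LM3b. The derivative libraries lay close together, far below the lowest MC38-P library. Its log2 fold change was -1.001 ± 0.08 (adjusted p = 1.16e-05) and -0.94 ± 0.08 (adjusted p = 1.38e-05), and the means were lower by 50.4% and 48.4%. Cyp51, the lanosterol demethylase, fell from 53.6 to 67.4 TPM in the parent to 29.5 to 36.4 TPM in MC38-LM3a and 34.1 to 40.6 TPM in MC38-LM3b, by 0.87 and 0.70 on the log2 scale (SE 0.11 each). Nsdhl and Msmo1, which together strip methyl groups from the sterol ring, fell by 0.78 and 0.62 (SE 0.10 each) and by 0.58 and 0.46 (SE 0.07 each). Fdft1, the squalene synthase, fell by 0.55 and 0.61 (SE 0.10 each), and Sc5d, a sterol desaturase, by 0.47 and 0.24 (SE 0.08 each).

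Other sterol genes changed in only part of the tests. Lss, which closes the rings of lanosterol, and Tm7sf2, a sterol reductase, were called lower in MC38-LM3a, by 0.38 ± 0.09 and 0.51 ± 0.14. In MC38-LM3b their values were -0.08 ± 0.09 and -0.23 ± 0.14, not called. With the correction Lss fell in both, by 0.33 and 0.31 (SE 0.06 each), and Tm7sf2 was at -0.52 ± 0.11, called, and -0.27 ± 0.11, not called. Lbr, which serves the same reduction and also anchors chromatin to the nuclear lamina, Hsd17b7, the partner of Nsdhl in demethylation, and Dhcr7, the reductase that yields cholesterol, were called in neither derivative, with values between -0.37 and 0.14. With the correction, Hsd17b7 fell in both, by 0.37 and 0.32 (SE 0.05 each), and Lbr was called lower in MC38-LM3a, at -0.12 ± 0.05. Without MC38-P replicate 3 and MC38-LM3a replicate 3, all 3 were called lower in MC38-LM3a, where 45.2% of all genes were lower: Lbr at -0.31 ± 0.05, Hsd17b7 at -0.63 ± 0.07 and Dhcr7 at -0.33 ± 0.06. Ebp, the sterol isomerase, was at 43.5 to 45.0 TPM in MC38-P, 46.5 to 51.3 TPM in MC38-LM3a and 50.5 to 53.4 TPM in MC38-LM3b. Its rise in MC38-LM3b was 0.22 ± 0.07 (adjusted p = 0.0272), which is the shift of all genes, 0.01 above their median. It turned to -0.01 when libraries were centred on their median, and it was 0.11 ± 0.05 with the correction, not called.

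The 2 SREBP genes differed: Srebf2 fell in both derivatives, and Srebf1 fell in neither. Srebf2 was at 194, 190 and 154 TPM in MC38-P, at 106, 103 and 137 TPM in MC38-LM3a, and at 145, 143 and 141 TPM in MC38-LM3b. Each derivative library was below each MC38-P library. It fell by 0.63 ± 0.12 in MC38-LM3a (adjusted p = 0.00225). In MC38-LM3b it fell by 0.32 ± 0.12 (adjusted p = 0.0432). With the correction it was 0.54 ± 0.03 and 0.57 ± 0.03. Srebf1 was at 80.3, 75.5 and 61.7 TPM in MC38-P, at 67.3, 65.8 and 85.0 TPM in MC38-LM3a, and at 95.2, 93.7 and 94.5 TPM in MC38-LM3b. It overlapped between MC38-P and MC38-LM3a, with a difference of 0.00 ± 0.11, and rose in MC38-LM3b by 0.39 ± 0.11 (adjusted p = 0.0189). With the correction these values were 0.08 ± 0.03, not called, and 0.15 ± 0.03, called. Without MC38-P replicate 3 and MC38-LM3a replicate 3, Srebf1 was called lower in MC38-LM3a, at -0.22 ± 0.04, where 45.2% of all genes were lower.

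The ratio of the 2 genes within a library, chosen after their values were seen and given with no test, varied little between replicates. Srebf2 was 2.42, 2.52 and 2.49 times Srebf1 in MC38-P. In MC38-LM3a this ratio was 1.58, 1.56 and 1.61. For MC38-LM3b it was 1.53, 1.53 and 1.49. It was thus alike in replicates that differed in the TPM of both genes, including replicate 3 of MC38-P and MC38-LM3a. Both transcripts are of similar length, 5077 and 4299 bases. Insig1, itself a known SREBP target, fell in MC38-LM3a by 0.40 ± 0.10 (adjusted p = 0.0132) and was at -0.04 ± 0.10 in MC38-LM3b. With the correction it fell in both, by 0.43 and 0.24 (SE 0.05 each). Scap, the carrier of SREBP, was called in neither, at -0.19 and 0.14 (SE 0.11 each). In MC38-LM3a it was called lower with median centring, at -0.19 ± 0.06, where 20.1% of all genes were lower. Without replicate 3 of MC38-P and of MC38-LM3a it was also called lower, at -0.38 ± 0.07, where 45.2% of all genes were.

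**Figure D3:**
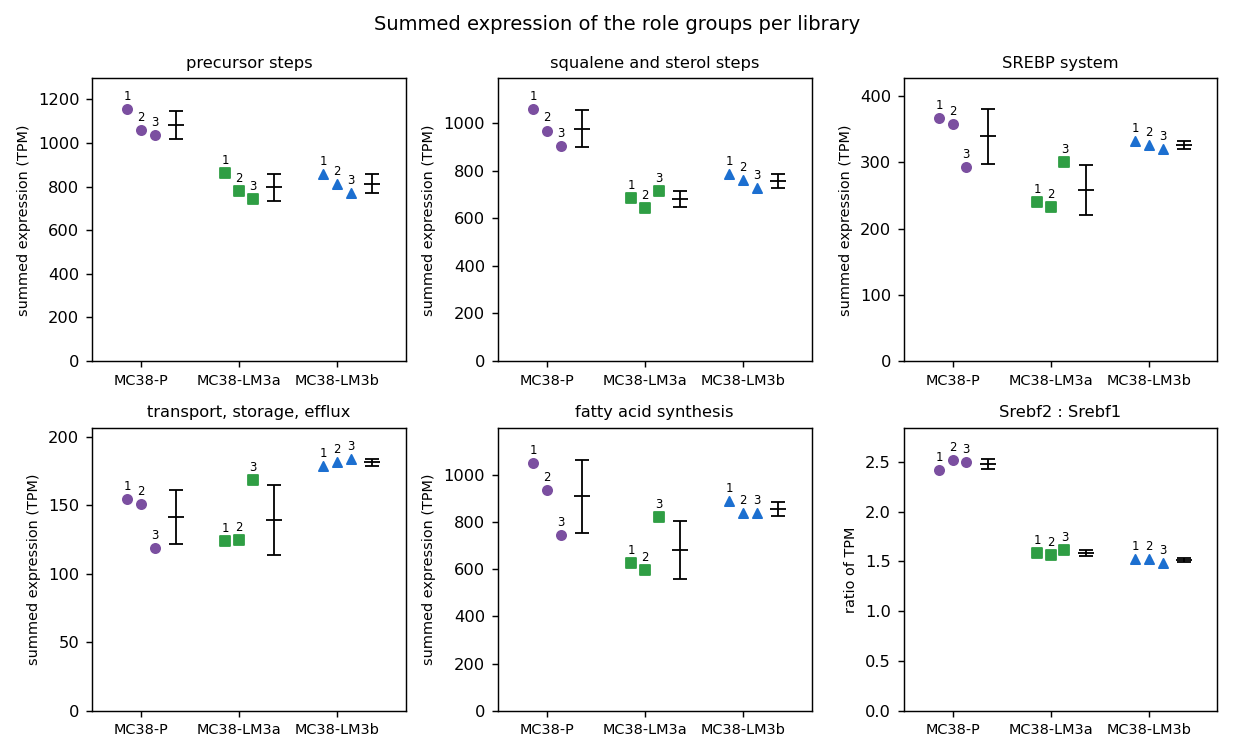
Summed TPM of the members of each role group, and the ratio of Srebf2 to Srebf1, in each library, numbered by replicate, with the mean and SD of 3 replicates as black marks. The precursor and sterol sums of MC38-P, at least 1035 and 902 TPM, lie above those of all derivative libraries, while the fatty acid sums overlap, and the ratio is 2.42 to 2.52 in MC38-P and 1.49 to 1.61 in the derivatives.

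Srebf2 and Sqle are the members on chromosome 15, and this chromosome as a whole was low in both derivatives. In GRCm38 (GENCODE M21 annotation) Sqle spans chr15:59315077-59331192 and Srebf2 spans chr15:82147181-82205379, both on the plus strand. Over the 458 tested genes of chromosome 15 the median change on the log2 scale was -0.54 for MC38-LM3a and -0.32 for MC38-LM3b, or -0.50 for each with the correction. Srebf2 differed from this median by -0.10 and -0.00, and by -0.05 and -0.08 with the correction. Thus 159 and 228 of the 458 genes were lower than Srebf2. Sqle lay 0.46 and 0.63 below the median, with 27 and 30 of the 458 genes below it. The part of the chromosome in the change of either gene was not tested. The other 30 tested members lie on other chromosomes, and among them 17 fell and 0 rose in MC38-LM3a, and 11 fell and 4 rose in MC38-LM3b, with medians of -0.39 and -0.15. Over all tested genes 13.8% fell and 14.1% rose, and 11.2% fell and 35.6% rose, with medians of -0.00 and 0.21. With the correction 23 of the 30 fell and 2 rose in MC38-LM3a (25.3% and 27% of all genes), and 21 fell and 3 rose in MC38-LM3b (28.9% and 29.6%), with medians of -0.37 and -0.33.

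**Figure D4:**
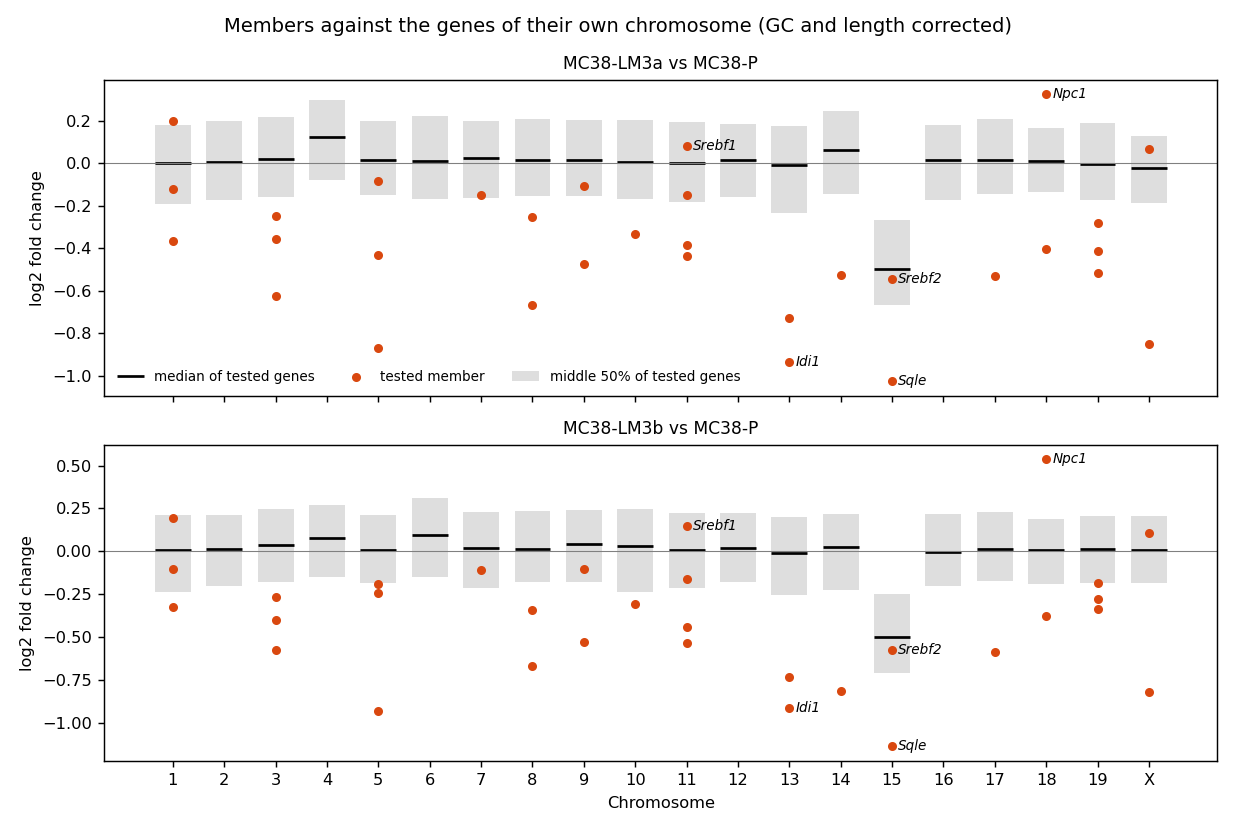
Log2 fold change with the correction along GC content and length, by chromosome, in MC38-LM3a and MC38-LM3b against MC38-P. Grey bars span the middle 50% of the tested genes, black lines are medians and orange points the tested members. Chromosome 15 lies low at -0.50 in both panels, with Srebf2 near its median and Sqle below it, and most members on other chromosomes lie below their own medians.

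Of the 3 tested genes of sterol transport and storage, 1 fell in MC38-LM3a (13.8% of all genes) and 2 rose in MC38-LM3b (35.6% of all genes). Npc1, which lets cholesterol out of lysosomes, was at 28.5, 28.1 and 21.1 TPM in MC38-P, at 28.4, 27.6 and 39.2 TPM in MC38-LM3a, and at 44.2, 43.5 and 47.0 TPM in MC38-LM3b. It rose in MC38-LM3b by 0.78 ± 0.15 (adjusted p = 0.00178), or 0.57 above the median of all genes, and all of its libraries were above all MC38-P libraries. In MC38-LM3a it was at 0.28 ± 0.15 (adjusted p = 0.190), with overlapping groups. Soat1, which esterifies cholesterol for storage, was at 66.3, 65.9 and 52.9 TPM in MC38-P, at 58.7, 59.1 and 83.1 TPM in MC38-LM3a, and at 84.8, 86.5 and 86.8 TPM in MC38-LM3b. It rose in MC38-LM3b by 0.48 ± 0.13 (adjusted p = 0.0137), and was at 0.10 ± 0.13 in MC38-LM3a. In both genes MC38-LM3a replicate 3 was high and MC38-P replicate 3 low, and both have long transcripts, of 5224 and 8371 bases. With the correction Npc1 rose by 0.33 ± 0.05 and 0.54 ± 0.05, and Soat1 by 0.20 ± 0.04 and 0.19 ± 0.04, in MC38-LM3a and MC38-LM3b. Without the 2 libraries and with no correction, Npc1 was at -0.01 ± 0.05 and Soat1 at -0.16 ± 0.04 (called lower) in MC38-LM3a. In that fit 45.2% of all genes were lower there. The direction of both genes in this derivative thus depended on the processing. In MC38-LM3b both stayed higher, at 0.65 ± 0.05 and 0.38 ± 0.04, where 46.3% of all genes were higher. Stard4, a cytosolic sterol carrier, fell in MC38-LM3a by 0.42 ± 0.12 (adjusted p = 0.0219) and was at -0.10 ± 0.12 in MC38-LM3b. With the correction it fell in both, by 0.40 and 0.37 (SE 0.04 each).

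Of the 6 fatty acid synthesis genes, 4 fell in MC38-LM3a (13.8% of all genes), and none was called in MC38-LM3b (11.2% of all genes fell and 35.6% rose). Elovl6, which extends palmitate, was at 79.2, 71.9 and 56.3 TPM in MC38-P, at 37.8, 38.1 and 54.5 TPM in MC38-LM3a, and at 56.6, 55.5 and 54.4 TPM in MC38-LM3b. Its fall in MC38-LM3a was 0.66 ± 0.15 (adjusted p = 0.00748), and its value in MC38-LM3b was -0.30 ± 0.15 (adjusted p = 0.122). Fasn, the fatty acid synthase, was at 142, 138 and 105 TPM in MC38-P, at 76.23, 74.96 and 111.5 TPM in MC38-LM3a, and at 110, 109 and 109 TPM in MC38-LM3b. The groups overlapped through replicate 3 of MC38-P and of MC38-LM3a. Its fall in MC38-LM3a was 0.56 ± 0.15 (adjusted p = 0.0191). Acaca, the acetyl-CoA carboxylase, and Scd2, a desaturase, fell in MC38-LM3a by 0.57 ± 0.18 (adjusted p = 0.0354) and 0.46 ± 0.14 (adjusted p = 0.0300). Acly, which supplies cytosolic acetyl-CoA, and the desaturase Scd1 were not called, at -0.19 ± 0.12 and -0.31 ± 0.14 in MC38-LM3a and 0.06 ± 0.12 and 0.06 ± 0.14 in MC38-LM3b. Scd1 and Scd2 are close relatives, and their values are uncertain where reads could be split between them.

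These genes have long transcripts (Fasn 10050, Acaca 9513 and Elovl6 5951 bases), and their values moved with the processing. With the correction all 6 fell in both derivatives, where 25.3% and 28.9% of all genes fell, with medians of -0.40 and -0.39 on the log2 scale: Fasn by 0.38 and 0.53, Acaca by 0.44 and 0.44, Elovl6 by 0.62 and 0.57, Scd2 by 0.41 and 0.34, Scd1 by 0.28 and 0.18, and Acly by 0.15 and 0.16. Without the 2 libraries and with no correction, Fasn fell by 0.88 ± 0.04 in MC38-LM3a and by 0.36 ± 0.03 in MC38-LM3b. In that fit 45.2% and 19% of all genes were lower. Acly and Scd1 were not called in MC38-LM3b there, at -0.05 ± 0.06 and -0.09 ± 0.07. A fall of Fasn, Elovl6, Acaca and Scd2 in both derivatives was therefore called with the correction and without these libraries. It was not called in both with all libraries as deposited. The fit without these libraries does not correct for length, so it cannot separate a fall of these long transcripts in MC38-LM3a from a length trend.

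Between the derivatives no member was called in either direction, and of all genes 0.0354% were higher and 0.0177% lower in MC38-LM3b. Unadjusted p-values were under 0.05 for 14 members, all of them higher in MC38-LM3b, but the same held for 38.1% of all genes in either direction, and the median difference was 0.24 for the members and 0.21 for all genes. In 16 members all MC38-LM3b libraries were above all MC38-LM3a libraries (38.4% of all genes), and in none below (3.6%). The largest difference was that of Npc1, 0.50 ± 0.15 (adjusted p = 0.119). For Sqle it was 0.06 ± 0.08 (adjusted p = 0.586). The comparison rested on MC38-LM3a replicate 3: without it 19 members were higher, where 52.2% of all genes were. With the correction and all libraries, the members' median difference was 0.00 and again none was called, with 0.0901% of all genes higher and 0.117% lower.

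Genes that act around these pathways were counted in lists that were chosen by role, to be read beside the 14.1% of all tested genes that rose and 13.8% that fell in MC38-LM3a, and the 35.6% and 11.2% in MC38-LM3b. Of 13 tested genes of SREBP processing and sterol sensing, 3 rose and 3 fell in MC38-LM3a and 4 rose and 1 fell in MC38-LM3b. The largest called changes in MC38-LM3a were of Nr1h2, a liver X receptor (0.42), and its partner Rxra (-0.57). In MC38-LM3b they were of Erlin2, which takes part in sterol-driven degradation (0.71), and Tmem97, a sterol-responsive membrane protein (-0.42). With median centring Erlin2 was at 0.49 and Tmem97 at -0.65 in MC38-LM3b. When corrected along GC content and length, the largest called changes in MC38-LM3a were of Nr1h2 (0.51) and Mylip (-0.50). With the correction the largest called changes in MC38-LM3b were of Nr1h2 (0.54) and Rnf139 (-0.54). As deposited, the MC38-LM3b and MC38-P libraries overlapped in Rnf139. Of 12 tested genes of sterol uptake, transport and esterification, 5 rose and 1 fell in MC38-LM3a, and 8 rose and none fell in MC38-LM3b. Lrp1, a receptor for lipoprotein remnants, was at 57.8, 56.2 and 36.8 TPM in the parent, 64.5, 64.7 and 113 TPM in MC38-LM3a and 125, 122 and 121 TPM in MC38-LM3b. It rose by 0.65 ± 0.21 and 1.30 ± 0.21. With the correction its rise was 0.85 ± 0.05 and 0.96 ± 0.05. As in Npc1 and Soat1, MC38-LM3a replicate 3 was high and MC38-P replicate 3 low, and the transcript is long, 14888 bases. The size of its rise in MC38-LM3a as deposited therefore depends on these libraries. Vldlr, the very-low-density lipoprotein receptor, fell in MC38-LM3a by 0.60 ± 0.16. In MC38-LM3b it was at -0.29 as deposited, not called. It was called lower there with the correction, at -0.57 ± 0.07, and with median centring, at -0.51 ± 0.09. Isoprenoid branch genes, which use farnesyl diphosphate for other products, were called in both directions. In MC38-LM3a 2 of 9 rose and 2 fell, with Dhdds at 0.29 and Pdss2 at -0.43. In MC38-LM3b 4 rose and 1 fell, with Nus1 at 0.40 and Pdss1 at -0.29. With median centring these values in MC38-LM3b were 0.17 for Nus1 and -0.51 for Pdss1. With the correction Pdss1 was at -0.46, and the largest called rise there was that of Coq2, 0.25. Of 21 tested genes of further fatty acid synthesis, elongation and desaturation, 1 rose and 5 fell in MC38-LM3a and 4 rose and 3 fell in MC38-LM3b. Fads1, a desaturase of polyunsaturated fatty acids, fell most in both, by 0.60 ± 0.12 and 0.34 ± 0.12. With the correction Fads1 was at -0.59 ± 0.06 and -0.53 ± 0.06. Elovl1 (0.27 in MC38-LM3a) and Lpin1 (0.52 in MC38-LM3b, 0.26 with the correction) rose most. Median changes of the 4 lists were 0.02, 0.10, 0.03 and -0.13 in MC38-LM3a and 0.22, 0.45, 0.29 and -0.06 in MC38-LM3b, beside medians of -0.00 and 0.21 over all tested genes. With the correction, where 27% of all genes rose and 25.3% fell in MC38-LM3a and 29.6% and 28.9% in MC38-LM3b, these counts moved. The genes of SREBP processing and sterol sensing then had 5 higher and 5 lower in MC38-LM3a and 4 higher and 5 lower in MC38-LM3b. Those of uptake, transport and esterification had 6 higher and 1 lower, and 8 higher and 1 lower. The isoprenoid branches had 3 higher and 3 lower, and 2 higher and 3 lower. The further fatty acid genes had 3 higher and 11 lower, and 3 higher and 12 lower, so that their balance in MC38-LM3b turned from more rises to more falls, as it did with median centring (1 higher and 12 lower). The medians were then -0.01, 0.18, 0.02 and -0.14 in MC38-LM3a and 0.02, 0.31, -0.02 and -0.16 in MC38-LM3b.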

How the data were processed

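Poly(A) RNA libraries of 9 cell cultures were made and run on a DNBSEQ sequencer. The authors deposited TPM per gene and library, and their processing notes name HISAT and GRCm39. The quantification tool is not given in the sources used here. No counts were held, so DESeq2, named in the study's methods, was not run and depth is unknown.

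Values were analysed as log2(TPM + 1) with limma 3.58.1 in R 4.3.3, keeping genes at 1 TPM or more in 3 or more libraries, with a mean per group over all 9 libraries, a trended variance and Benjamini-Hochberg adjustment over all genes tested. This scale understates changes of low genes. Per-library loess offsets (span 0.3) on GC content and on the length of the longest protein-coding GENCODE M21 transcript gave the corrected values, for 98.3% of tested genes. Locations are from GRCm38 and were matched by NCBI Gene number, not converted. The procedure was tested on simulated data. Members and lists were chosen with earlier results of these data known. Members called, with the largest change of their role, past 1 on the log2 scale or differing between derivatives, were given by library, and the largest called rise and fall of each other list was named. The closing section lists the alternatives. Proteomic, metabolomic and single-cell data were not analysed here.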

Additional observations from a re-analysis of the deposited data

How the results depend on the processing

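More members were lower than higher in each derivative under every alternative tried, and a pseudocount of 0.1, a minimum of 5 TPM, no filter, or fitting only the 2 groups compared left every count within 1.5 times. In MC38-LM3a 19 members were lower, with 12 members lower without MC38-P replicate 1 (background 9.4%) and 24 without MC38-LM3a replicate 3 (background 23.2%) among the fits that left out single libraries, and 28 without MC38-P replicate 3 and MC38-LM3a replicate 3 together (background 45.2%). Members higher in MC38-LM3a numbered 0 as deposited (background 14.1%) and in each fit that left out a single library (background 10% to 14.2%). They numbered 1 with median centring or quantile normalization (background 19.8% and 21.5%). With the GC and length offsets they numbered 2, alone, with the replicate block, or without both libraries (background 27%, 25.3% and 29%). The last of these fits, without both libraries, was chosen after seeing the data. In MC38-LM3b, where 13 members and 11.2% of all genes were lower, 9 to 14 members were lower when single libraries were left out (background 8.07% to 13.8%), 23 with median centring (background 26.4%), 21 with quantile normalization (24.5%), 23 with the offsets (28.9%), 24 with the offsets and the replicate block (27.3%), 20 without both libraries (19%) and 26 without both libraries with the offsets (30.9%). Members higher in MC38-LM3b numbered 2 to 4 without single libraries (background 24.5% to 45.1%), with 2 without MC38-P replicate 3 or without any 1 of the MC38-LM3b libraries, and 2 with the replicate block (background 26%). Between the derivatives, 0 to 19 members were higher without single libraries (background 0% to 52.2%), and 0 were lower (background 0% to 4.24%). Without both libraries 22 were higher (background 65%). Without both libraries and with the offsets, 2 were higher and 5 lower (background 12.7% and 14.9%). The cause of these shifts was not tested.

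Single values that turned sign and were called under either setting were, in MC38-LM3b against MC38-P, Ebp -0.0067 and Dhcr7 -0.16 with median centring, Acly -0.16 and Scd1 -0.18 with the offsets, with or without the replicate block, and Lbr -0.10, Dhcr7 -0.19, Acly -0.19 and Scd1 -0.24 with the offsets without both libraries. In MC38-LM3a, Srebf1 -0.22 and Soat1 -0.16 reversed without both libraries, where 45.2% of all genes were lower. Over the fits that left out libraries without offsets, Srebf1 ranged from -0.22 to 0.0792 and Soat1 from -0.16 to 0.19. Uncalled values turned too: 23 members were below 0 in MC38-LM3b as deposited, 29 with median centring and 28 with the offsets (3258, 5812 and 5412 of all genes), where Lbr, Dhcr7 and Scap were at -0.10, -0.11 and -0.10. Between the derivatives Mvd -0.23, Sqle -0.14 and Fasn -0.16 reversed with the offsets without both libraries.

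The replicate numbers did not pair the samples: deviations of same-numbered libraries correlated at -0.66 to 0.07, and 3 of 9 libraries correlated best with their own number. With the replicate block 15 members were lower in MC38-LM3a and 9 in MC38-LM3b (background 9.74% and 8.43%). Depth is unknown.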

Other observations

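Outside the comparisons, the ratio of Scd2 to Scd1, the 2 stearoyl-CoA desaturases, was chosen after the values were seen and is given with no test. It was 5.53, 5.58 and 5.62 in MC38-P, 4.95, 5.09 and 5.07 in MC38-LM3a and 5.06, 5.07 and 5.06 in MC38-LM3b, so each derivative library lay below each MC38-P library.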
